A study of Mus musculus with 18 samples.

Results

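The transcripts of 5 cytochrome P450 enzymes, Cyp1a2, Cyp2a4, Cyp2a12, Cyp2e1 and Cyp4b1, were measured in the livers of 18 mice on a cDNA array. They were chosen by name from 289 gene probes, under the heading of constitutive liver P450s of families 1, 2 and 4. The array held other P450s of families 2 and 4 as well, which are described further on. All 5 were among the 188 probes that were kept because the spot stood above its local background on at least 6 arrays. The choice was made with the group differences of these same arrays known. Differences of the 5 between groups are therefore given as descriptions, with no p of their own. The intervals printed with some of them are adjusted neither for this choice nor for the number of probes, and are not to be read as tests. The 5 enter the test across all probes only as a count.

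The mice were female C57BL/6 animals of 16 weeks that had eaten a diet with 1% cholesterol for 1 week, which all groups shared. They received 1 oral dose of tap water (vehicle), of rosuvastatin at 20 mg/kg or of atorvastatin at 40 mg/kg, and liver was taken 24 h later, with 6 mice per group. Statins lower cholesterol by inhibiting its synthesis, and because the doses differed, drug and dose cannot be told apart. Each array carried the liver RNA of 1 mouse in Cy3 and a pool of all samples in Cy5 as the common reference. Values are log2 ratios of mouse over pool, so a value of 0 is the level of the pool, and a difference between groups is a log2 fold change. The reference pool holds the RNA of all groups, and levels of different probes cannot be set against each other.

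Cytochrome P450s are haem enzymes of the endoplasmic reticulum that insert oxygen into drugs, steroids and fatty acids, with electrons supplied by P450 reductase. Members of families 1 to 3 carry most of the oxidation of foreign compounds in the liver, and family 4 enzymes mainly hydroxylate fatty acids. In the liver lobule Cyp1a2 and Cyp2e1 are enriched in hepatocytes around the central vein, while Cyp2a4 is known for its higher level in female than in male mice. Since whole liver was measured, fewer cells that express a gene and less RNA per cell cannot be told apart.

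The promoters of the 4 members that enter the correlated pairs described further on are shown, together with that of Cyp2a5, a near copy of Cyp2a4. Each sequence is the 120 bases before the annotated transcription start, 5′ to 3′ on the strand of the gene, from RefSeq on build GRCm38.p6. Capitals mark the letters TATAAA.
Cyp2a4, chr7:26307072-26307191, plus strand: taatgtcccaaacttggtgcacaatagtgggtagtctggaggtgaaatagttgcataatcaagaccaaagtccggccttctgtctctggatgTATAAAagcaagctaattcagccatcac
Cyp2a5, chr7:26835219-26835338, plus strand: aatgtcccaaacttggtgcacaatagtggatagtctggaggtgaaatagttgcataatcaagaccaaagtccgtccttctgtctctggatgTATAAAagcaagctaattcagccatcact
Cyp2a12, chr7:27028970-27029089, plus strand: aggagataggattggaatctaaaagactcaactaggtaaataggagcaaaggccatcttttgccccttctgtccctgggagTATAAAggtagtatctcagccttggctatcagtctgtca
Cyp1a2, chr9:57683656-57683775, minus strand: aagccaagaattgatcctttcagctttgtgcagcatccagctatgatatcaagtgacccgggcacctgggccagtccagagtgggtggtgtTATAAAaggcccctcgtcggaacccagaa
Cyp2e1, chr7:140763699-140763818, plus strand: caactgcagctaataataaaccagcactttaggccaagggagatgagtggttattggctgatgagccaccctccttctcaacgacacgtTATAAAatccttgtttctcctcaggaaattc

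These letters were found on the gene strand in 4 of the 5 members, with Cyp4b1 on chromosome 4 as the exception, and in 4.2% of the 32851 promoters of the table over the same length. The first base of the motif lay 28 bases before the start in Cyp2a4, 29 in Cyp2a5 and Cyp1a2, 31 in Cyp2e1 and 39 in Cyp2a12. Over 250 bases and both strands, CCAAT was present in Cyp2a12 and Cyp2e1 and in 33.8% of all promoters. TTGCNNAA, the letters that C/EBP factors favour, was present in Cyp2a4 among the members and in 9.6% of all promoters. AGGTCA, bound by many nuclear receptors, and GCGTG, the core bound by the Ah receptor, were in none of the 5 windows and in 14.0% and 28.2% of all promoters.

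The Cyp2a4 and Cyp2a5 promoters matched at 245 of 249 aligned bases over the 250 bases before the start. Both genes lie in a P450 cluster on chromosome 7, in the order Cyp2b10, Cyp2b13, Cyp2b9, Cyp2a4, Cyp2g1, Cyp2a5, Cyp2a12 and Cyp2f2, within a stretch where 11 of 16 protein-coding genes are P450s. Cyp2e1 lies elsewhere on chromosome 7, and Cyp1a2 on chromosome 9. How far the Cyp2a4 probe also captures Cyp2a5 RNA was not tested, so the Cyp2a4 values are uncertain in that respect.

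All 5 members, each spotted 3 times, had their 3 spots above background on all 18 arrays. The hepatocyte genes Alb, Apoa1, Apoc3 and Hnf4a were above background on all 18 arrays as well, while the adipocyte genes Adipoq and Lep were so on 9 and 0 arrays. None of the listed macrophage, endothelial, stellate or cholangiocyte markers was matched to a probe by name. The median intensity of an array ran from 206 to 376 in the sample channel and from 267.5 to 659.5 in the reference channel. Atorvastatin 4 and vehicle 5 stood apart, with median correlations to the other arrays of -0.46 and 0.25 against 0.64 to 0.89 for the rest. Without the acute phase Saa genes they were 0.01 and -0.08 against 0.16 to 0.47. A group of 11 arrays (4 vehicle, 4 rosuvastatin and 3 atorvastatin) shared 1 size of the ring used for local background. Values within these arrays stand beside those over all arrays. No label names the ring size as a batch, and whether arrays of the same size were handled together is not known. A size of 228 pixels was found on rosuvastatin 4, atorvastatin 1 and atorvastatin 4, and on no vehicle array.

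The spread between mice of a group differed among the members. The pooled SD of the log2 ratio was 0.31 for Cyp1a2, 0.20 for Cyp2a4, 0.19 for Cyp2e1, 0.17 for Cyp4b1 and 0.16 for Cyp2a12, against a median of 0.20 over the 188 probes. Cyp1a2 thus varied more than 72.9% of the probes. The typical SD between the 3 spots of a probe was 0.06 for Cyp2a12 and between 0.10 and 0.11 for the others, so the spread between mice was 1.55 (Cyp4b1) to 3.07 (Cyp1a2) times the spread between spots.

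No probe of the 188 passed an adjusted p of 0.05 (limma, Benjamini-Hochberg) in any of the 3 comparisons, so that 0 of 5 members was called beside 0.00% of all probes. At an unadjusted p under 0.05 there were 12 probes (6.38%) in the comparison of rosuvastatin with vehicle, 16 (8.51%) in that of atorvastatin with vehicle and 10 (5.32%) in that of both statins. The 6 mice of a group and the 6 of another overlapped for every member in every comparison, beside non-overlapping groups in 0.00%, 0.00% and 0.532% of the probes.

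**Figure D1:**
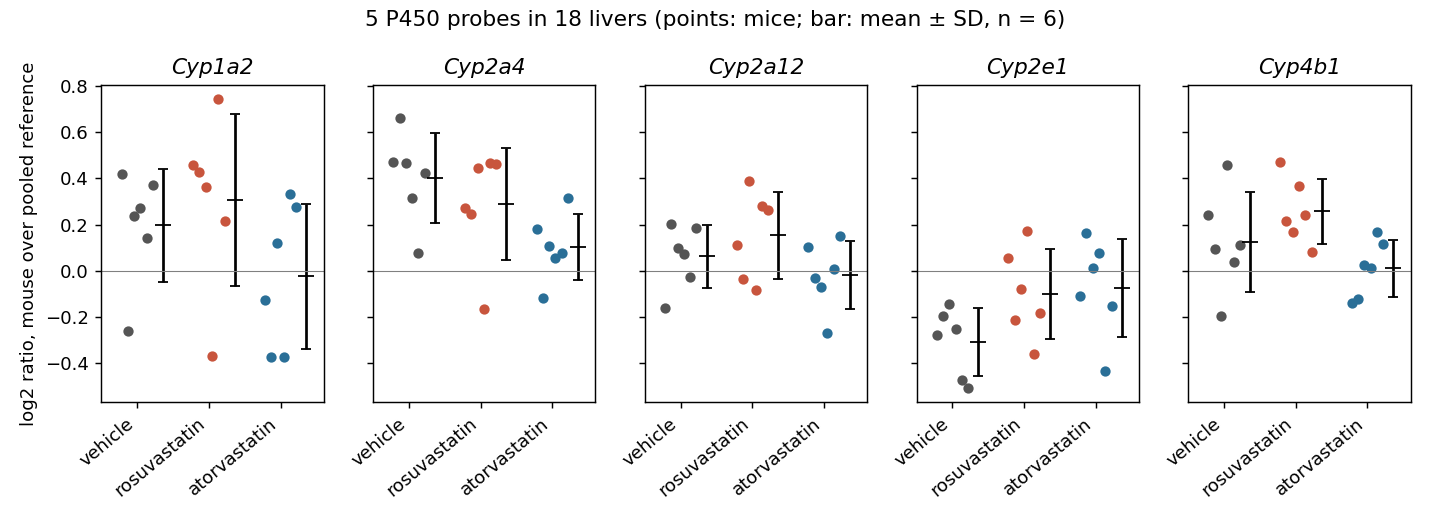
Log2 ratio of mouse over pooled reference (vertical axis) for the 5 P450 probes, with 1 point per mouse in each of the 3 groups and the mean ± SD (n = 6) beside the points. The groups overlap in every panel, the vehicle mice lie lowest for Cyp2e1 (mean -0.31) and highest for Cyp2a4 (mean 0.40), and rosuvastatin 4 lies apart for Cyp2a4 at -0.17.

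Cyp1a2 oxidises caffeine and aromatic amines. Its log2 ratio ran from -0.26 through a median of 0.26 to 0.42 in vehicle mice, from -0.37 through 0.40 to 0.74 in rosuvastatin mice and from -0.37 through -0.0027 to 0.33 in atorvastatin mice. The lowest vehicle and rosuvastatin values came from vehicle 2 and rosuvastatin 4, which lay far below the rest of their groups, while the atorvastatin mice were spread over the whole range. Means were 0.31 ± 0.37 (SD, n = 6) with rosuvastatin, 0.20 ± 0.24 with vehicle and -0.02 ± 0.31 with atorvastatin. Neighbours in this order differed by less than their SDs.

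For Cyp1a2, rosuvastatin lay 0.11 (SE 0.17) above vehicle, with 5 of 6 mice above the vehicle mean. This was 0.02 without vehicle 2 and 0.24 without rosuvastatin 4. Atorvastatin lay at -0.22 (SE 0.17) against vehicle and at -0.33 (SE 0.17, 95% confidence interval -0.69 to 0.04) against rosuvastatin, with 1 of 6 mice above the rosuvastatin mean. The last value ranked 19 of 188 by size, and within the 11 arrays it was -0.38. The other differences moved more within these arrays, to 0.33 for rosuvastatin and -0.05 for atorvastatin against vehicle. Read from the sample channel alone, atorvastatin lay 0.04 above vehicle, in the opposite direction. Values of that channel are centred on the array median, without loess, and no reference corrects them for differences between spots.

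Cyp2a4 hydroxylates testosterone. In vehicle mice its log2 ratio ran from 0.08 through a median of 0.45 to 0.66. In rosuvastatin mice the range was from -0.17 through 0.36 to 0.47, and in atorvastatin mice from -0.12 through 0.09 to 0.32. Rosuvastatin 4 was the lowest mouse of all, and the other rosuvastatin mice lay at or above 0.25. The means were ordered vehicle (0.40 ± 0.20), rosuvastatin (0.29 ± 0.24) and atorvastatin (0.10 ± 0.14; SD, n = 6 each), and the difference between the outer groups exceeded either SD, whereas neighbours did not differ by more than both SDs.

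Atorvastatin was at -0.30 (SE 0.11, interval -0.54 to -0.06) against vehicle for Cyp2a4, 0.813-fold, and 0 of 6 mice reached above the vehicle mean. Over all members and comparisons, ranks by size ran from 19 to 160 of 188 probes, and this one was 20. Rosuvastatin was at -0.11 (SE 0.11) against vehicle, which became -0.02 without rosuvastatin 4, and atorvastatin was at -0.18 (SE 0.11) against rosuvastatin. Within the 11 arrays the values were -0.28, -0.01 and -0.27 in the same order. The direction against vehicle was not the same without the reference channel and loess, and which of them matters was not tested. In the sample channel alone Cyp2a4 lay 0.07 above vehicle with atorvastatin and 0.22 above it with rosuvastatin.

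Cyp2a12, a testosterone hydroxylase of the same subfamily, varied least among the 5. Vehicle mice ran from -0.16 through a median of 0.09 to 0.20, rosuvastatin mice from -0.08 through 0.19 to 0.39 and atorvastatin mice from -0.27 through -0.01 to 0.15. The extremes were rosuvastatin 3 at the top and atorvastatin 4 at the bottom. Means were 0.15 ± 0.19 with rosuvastatin, 0.06 ± 0.14 with vehicle and -0.02 ± 0.15 with atorvastatin, and no neighbours in this order differed by more than their SDs. The differences were 0.09 (SE 0.09) for rosuvastatin and -0.08 (SE 0.09) for atorvastatin against vehicle. The former was 0.04 without rosuvastatin 3 and 0.14 without rosuvastatin 4. The latter was -0.03 without atorvastatin 4, -0.13 without vehicle 1 and 0.003 with ring size as a block. Atorvastatin was at -0.17 (SE 0.09, interval -0.37 to 0.02) against rosuvastatin, and 0 of 6 atorvastatin mice lay above the rosuvastatin mean. In the 11 arrays these differences were 0.05, -0.07 and -0.11.

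Cyp2e1 oxidises ethanol, acetone and acetaminophen, and its probe was the only one of the 5 with spots at the intensity ceiling of 65535. The ceiling was reached in the reference channel in 18 of 54 spots and on 9 of 18 arrays, of which 4 were vehicle arrays (8 spots), 2 rosuvastatin arrays (5 spots) and 3 atorvastatin arrays (5 spots). On vehicle 2, vehicle 3, rosuvastatin 2 and atorvastatin 3 all 3 spots were at the ceiling. The sample channel never reached it, with intensities of 12956.7 to 30209.3. A clipped reference reads too low, which places the ratio of such a spot too high.

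**Figure D2:**
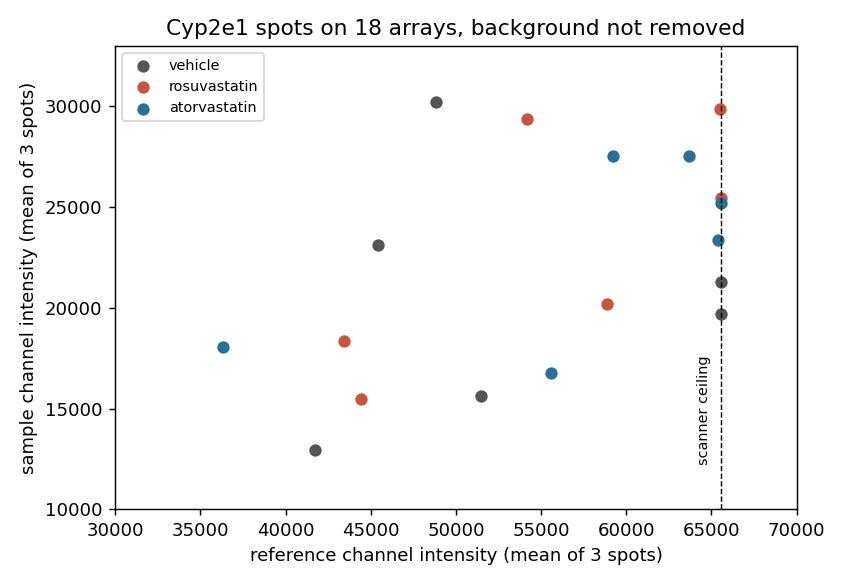
Intensity of the Cyp2e1 spots on 18 arrays, reference channel on the horizontal and sample channel on the vertical axis (mean of 3 spots, background not removed), coloured by group. The dashed line is the scanner ceiling, where the reference of vehicle 2, vehicle 3, rosuvastatin 2 and atorvastatin 3 lies, while the sample channel goes no higher than 30209.3.

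The log2 ratio of Cyp2e1 was below 0 in all 6 vehicle mice, from -0.50 through a median of -0.26 to -0.14. Rosuvastatin mice ran from -0.36 through -0.13 to 0.17 and atorvastatin mice from -0.43 through -0.05 to 0.16. In each statin group 5 of 6 mice lay above the vehicle mean, and rosuvastatin 5 and atorvastatin 5 did not. Means were -0.07 ± 0.21 with atorvastatin, -0.10 ± 0.19 with rosuvastatin and -0.31 ± 0.15 (SD, n = 6) with vehicle. The statin groups did not differ beyond their spread, and each lay above vehicle by more than its own or the vehicle SD.

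Against vehicle, Cyp2e1 was higher by 0.21 (SE 0.11, interval -0.02 to 0.43) with rosuvastatin and by 0.23 (SE 0.11, interval 0.01 to 0.46) with atorvastatin, 1.15-fold and 1.18-fold. With the spots at the ceiling left out, 4 vehicle, 5 rosuvastatin and 5 atorvastatin arrays remained and the differences were 0.26 and 0.23 (SE 0.14 each). In the 11 arrays they were 0.18 and 0.21, and in the sample channel alone 0.49 and 0.47. The ratios deposited by the authors, where 5 Cyp2e1 values are empty, gave -0.05 for rosuvastatin and 0.13 for atorvastatin. Between the statins the difference was 0.03 (SE 0.11, interval -0.20 to 0.25), and 0.03 in the 11 arrays. Its sign turned in 5 of 12 other settings that move it.

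Cyp4b1 hydroxylates fatty acids and is known mainly from lung. Vehicle mice ran from -0.20 (vehicle 3) through a median of 0.10 to 0.46 (vehicle 4), rosuvastatin mice from 0.08 through 0.23 to 0.47 and atorvastatin mice from -0.14 through 0.02 to 0.17. All rosuvastatin mice were above 0, and the atorvastatin mice lay in a narrow band around it. Means were 0.26 ± 0.14 with rosuvastatin, 0.13 ± 0.22 with vehicle and 0.01 ± 0.12 with atorvastatin, and neighbours in this order differed by less than their SDs. Atorvastatin was at -0.25 (SE 0.10, interval -0.45 to -0.04) against rosuvastatin, 0.843-fold, with 0 of 6 mice above the rosuvastatin mean, and at -0.20 in the 11 arrays. Against vehicle the differences were 0.13 (SE 0.10) for rosuvastatin and -0.11 (SE 0.10) for atorvastatin, or 0.08 and -0.12 in the 11 arrays. The value for rosuvastatin was 0.07 without vehicle 3 and 0.20 without vehicle 4, and that for atorvastatin was -0.18 without vehicle 3 and -0.05 without vehicle 4. The sample channel alone gave 0.41 and 0.27, so the direction of the atorvastatin difference turned there.

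**Figure D3:**
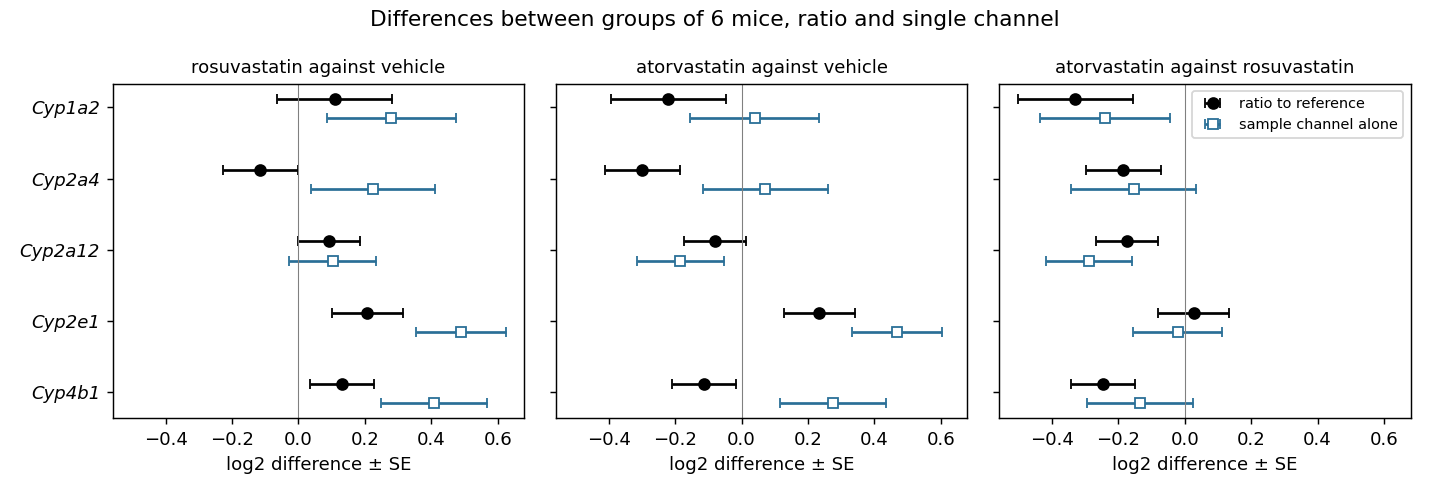
Log2 difference ± SE between groups of 6 mice (horizontal axis) for the 5 probes in 3 comparisons, from the ratio to the reference (black circles) and from the sample channel alone (open blue squares). For atorvastatin against vehicle the channels differ in direction for Cyp1a2, Cyp2a4 (-0.30 and 0.07) and Cyp4b1, for rosuvastatin against vehicle they do so for Cyp2a4 alone (-0.11 and 0.22), and for atorvastatin against rosuvastatin for Cyp2e1 alone.

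In the comparison of atorvastatin with rosuvastatin, Cyp1a2, Cyp2a4, Cyp2a12 and Cyp4b1 had a value below 0 in each of the 10 other settings that move these values and in each of the 12 fits without 1 of the statin arrays. The direction held in this way for 4 of 5 members. With rosuvastatin against vehicle it held for 3 of 5, and with atorvastatin against vehicle for 1 of 5. All these fits re-use the same arrays, and the members were chosen with the differences known. The share of all kept probes whose direction would hold was not computed. These counts therefore cannot be called particular to the members, nor do they test any comparison. In the sample channel alone the values of atorvastatin against rosuvastatin were -0.24 for Cyp1a2, -0.15 for Cyp2a4, -0.29 for Cyp2a12 and -0.13 for Cyp4b1. Without vehicle 5 and atorvastatin 4, the arrays that stood apart, they were -0.26, -0.18, -0.12 and -0.25 in the same order. Against vehicle, leaving out these arrays gave -0.35 for Cyp2a4 with atorvastatin and 0.17 for Cyp2e1 with each statin.

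The array held 21 P450 probes of families 1 to 4, of which 19 were kept and Cyp1a1 and Cyp1b1 were not. With rosuvastatin against vehicle, 4 of 5 members and 12 of the 14 other P450s had a difference above 0, with medians of 0.11 and 0.12. Over all 188 probes, 91 were above 0 and the median was -0.01. The other P450s ran from -0.12 (Cyp2j6) to 0.29 (Cyp3a11, the main drug-oxidising P450 of mouse liver). With atorvastatin against vehicle the members had 1 of 5 above 0 and a median of -0.11, and the other P450s had 4 of 14 and a median of -0.04, from -0.18 (Cyp2b13) to 0.20 (Cyp2c40). Over all 188 probes, 86 were above 0 and the median was again -0.01.

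With atorvastatin against rosuvastatin, 98 of all 188 probes were above 0, with a median of 0.01. Among the P450s, 1 of 5 members and 2 of the 14 others were above 0, with medians of -0.18 and -0.16. Cyp3a11 was lowest at -0.40 and Cyp2g1 highest at 0.03. No P450 passed the test in either direction in any comparison. The comparisons share groups and are therefore not independent of each other.

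**Figure D4:**
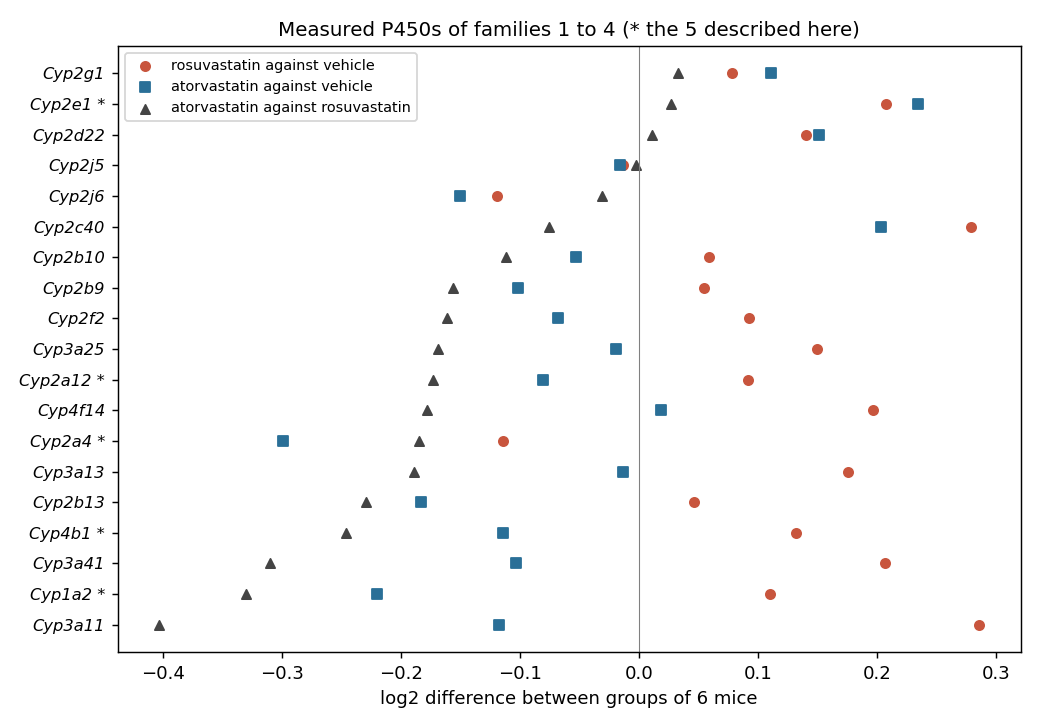
Log2 differences (horizontal axis) of the 19 kept P450s of families 1 to 4 in 3 comparisons of 6 against 6 mice, ordered by atorvastatin against rosuvastatin. Asterisks mark the 5 members. Most triangles lie left of 0, from -0.40 for Cyp3a11 to 0.03 for Cyp2g1.

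Among the regulators of these genes, the receptors that sense foreign compounds had values above 0 with rosuvastatin against vehicle, at 0.41 (SE 0.12) for Nr1i2 (PXR), which was above background on 8 arrays, and 0.37 (SE 0.12) for Nr1i3 (CAR). With atorvastatin against vehicle they were at 0.14 and 0.27. Ppara, the fatty acid sensor of hepatocytes, was at 0.23 and 0.37 (SE 0.13). Alas1, which makes the first step of haem synthesis, was at 0.30 and 0.39 (SE 0.20). The hepatocyte factors Hnf4a (-0.06 and 0.19), Cebpa (-0.08 and 0.11), Foxa2 (-0.07 and -0.06) and Rxra (0.05 and 0.21, above background on 17 arrays) had SEs of 0.11 to 0.14. None of these regulators passed the adjusted threshold, and Ahr, Arnt, Por and Cyb5a were not matched to a probe by name.

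Deviations of each mouse from its group mean show which members varied together, and the group differences do not enter them. Of 10 pairs, 2 passed an adjusted p of 0.05 (two-sided permutation test within groups, 100000 permutations). The share of all pairs of kept probes that would pass was not computed, so this count cannot be called particular to the members. Of the 187 other kept probes, 25 had r above 0.5 with Cyp1a2 and 17 had r below -0.5. For Cyp2e1 these counts were 11 and 16. Cyp2a4 and Cyp2a12 varied in the same direction (r = 0.65, permutation p = 0.00717, adjusted p = 0.0359, rho = 0.77, adjusted permutation p = 0.0096). Without vehicle 5 and rosuvastatin 4, the mice farthest from the median, r was 0.56 (permutation p = 0.0383, adjusted p = 0.13), and within the 11 arrays it was 0.85 (permutation p = 3e-04). The correlation was above 0 in every setting that was run for the pairs, and 0.61 in the sample channel alone, where 5 pairs passed. With the spike-in shift it was 0.95, and 6 pairs passed. Its direction in these settings is therefore not particular to this pair. With 1 array left out at a time, the correlation of Cyp2a4 with Cyp2a12 did not always pass the adjusted threshold. It failed without vehicle 2, rosuvastatin 1, 3, 4, 5 or 6, or atorvastatin 1, 5 or 6. Its r was as low as 0.54 without rosuvastatin 4. Nor did it pass with the ceiling spots of Cyp2e1 left out (r = 0.65, adjusted permutation p = 0.0717) or with plain background subtraction (r = 0.63, adjusted permutation p = 0.0506), where the adjustment runs over the same 10 pairs.

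Cyp1a2 and Cyp2e1 varied in opposite directions (r = -0.69, permutation p = 0.0034, adjusted p = 0.034, rho = -0.61, adjusted permutation p = 0.0698). Without vehicle 2 and rosuvastatin 4, r was -0.61 (permutation p = 0.0286), and within the 11 arrays -0.73 (permutation p = 0.0526). Its r was 0.03 in the sample channel alone, 0.01 in the ratios deposited by the authors, which lack 5 Cyp2e1 values, -0.09 with the spike-in shift and -0.50 with the array median in place of loess. With the ceiling spots of Cyp2e1 left out r was -0.68, which no longer passed the adjusted threshold. The other 8 pairs had adjusted permutation p between 0.294 and 0.843. No pair passed without rosuvastatin 4, rosuvastatin 5 or atorvastatin 5, and 1 passed without rosuvastatin 1, rosuvastatin 3, rosuvastatin 6, atorvastatin 1 or atorvastatin 6. All values of a mouse come from 1 array and share its normalisation.

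**Figure D5:**
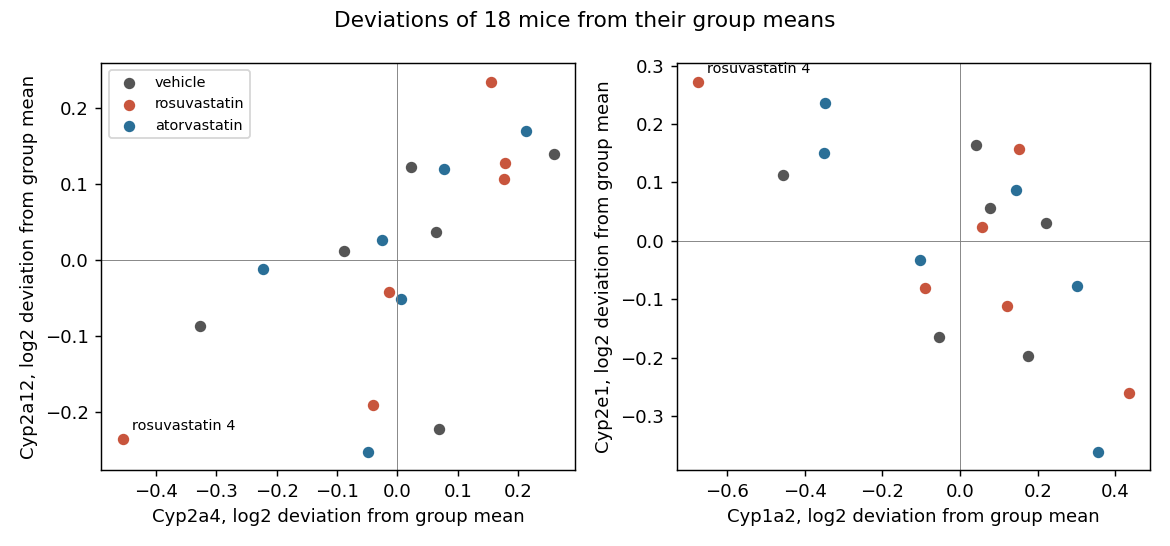
Log2 deviation of each of 18 mice from its group mean, Cyp2a4 against Cyp2a12 (left) and Cyp1a2 against Cyp2e1 (right), coloured by group. The points run upward on the left (r = 0.65) and downward on the right (r = -0.69), with rosuvastatin 4 at an end of each cloud.

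Over the same 18 deviations and all other kept probes, the probes most like Cyp2a4 were Cyp2b13 (r = 0.82), Cyp2b10 (r = 0.82) and Cyp2b9 (r = 0.75), which are its neighbours in the chromosome 7 cluster. Without any 1 array, these correlations were no lower than 0.73, 0.73 and 0.68. In the sample channel alone they were 0.94, 0.50 and 0.33. Cyp2a12 was most like Cyp2a4, Cyp2b10 (r = 0.58) and Cyp2b9 (r = 0.56), and these genes lie in the same cluster. Cyp2g1 and Cyp2f2 of this cluster were also kept, but were not among the probes most like Cyp2a4 or Cyp2a12. How far the Cyp2b probes capture RNA of each other's genes was not tested.

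Cyp1a2 was most like Ebp (r = 0.78), a sterol isomerase of cholesterol synthesis, Cyp17a1 (r = 0.71) and Apoc1 (r = 0.69). Cyp2e1 was most like Abcc3 (r = 0.76), a bile acid exporter, Ncor1 (r = 0.72), a corepressor of nuclear receptors, and Cyp2g1 (r = 0.62). Cyp4b1 was most like Abcb4 (r = 0.72), the phospholipid exporter of the bile canaliculus, Cyp26a1 (r = 0.55) and Cyp3a13 (r = 0.52), and the value for Cyp26a1 was 0.16 without vehicle 4. In the sample channel alone the correlation of Cyp1a2 with Apoc1 was -0.49 and that of Cyp4b1 with Cyp26a1 was -0.12, opposite in sign. There the values for Cyp1a2 were 0.40 with Ebp and 0.34 with Cyp17a1, and those for Cyp2e1 were 0.57 with Abcc3, 0.26 with Ncor1 and 0.37 with Cyp2g1. Cyp4b1 reached 0.87 with Abcb4 and 0.67 with Cyp3a13. In the ratios to the reference, 25 of 187 probes were above r = 0.5 for Cyp1a2, 15 for Cyp2a4, 11 for Cyp2e1, 4 for Cyp2a12 and 3 for Cyp4b1. Below r = -0.5 there were 17 for Cyp1a2, 13 for Cyp2a4, 16 for Cyp2e1, 8 for Cyp2a12 and 0 for Cyp4b1.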

How the data were processed

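The authors deposited, per array, spot and local background intensity in both channels (median pixel brightness, no background removed) and a table of log2 ratios. The image software, scanner and steps behind that table were not given in the sources used here. The deposited log2 ratios correlated with those computed here at r of 0.926 to 0.998 and had column medians of -0.32 to 0.56, so their centring is unknown. They served as an alternative. Computations used limma 3.58.1 (with statmod 1.5.0) under R 4.3.3. Normexp (offset 50) served as background correction, ratios were loess-normalised within arrays with control spots at weight 0, and 3 spots per probe were averaged. Saturated spots were kept. A spot was above background where it passed local background plus 2 SDs. All 18 arrays entered 1 limma fit with a mean per group. Its intervals are 95% and unadjusted. The number of arrays limits precision. Groups and mouse numbers came from the labels. Named were the 5 members, the extremes of the other P450s of families 1 to 4, and listed regulators. The 3 probes with the highest r for each member were named as well. Members and lists were chosen with earlier results of these data known. Gene names and promoters came from RefSeq on GRCm38.p6. The fit was tested on simulated data. No column of per-sample values was left out.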

Additional observations from a re-analysis of the deposited data

Results flagged for a closer look

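Rosuvastatin 4 stood apart from the other 5 rosuvastatin mice for Cyp2a4, at a log2 ratio of -0.17 against 0.25 for the nearest of the others, a gap of 0.654 of the whole range of the group. It was the only such value among 15 groups of 6 mice (5 members in 3 groups), and chance alone flags about 1 in 20 groups. The same mouse had the lowest rosuvastatin value for Cyp1a2 (-0.37) and Cyp2a12 (-0.08) and the highest for Cyp2e1 (0.17). Its array was the only rosuvastatin array with a background ring of 228 pixels, so this mouse and that ring size cannot be told apart within the group.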

How the results depend on the processing

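In 15 other settings no member was called. The replicate number as a block gave 2 probes past the threshold for atorvastatin against vehicle (Cebpz and Ppia) in place of 0, and it changed no other call. With this block the SE of the difference from vehicle was 0.075 for Cyp2e1 and 0.150 for Cyp1a2, in place of 0.107 and 0.173. It moved less for the other members. Correlations of same-numbered samples ran from -0.603 to 0.613, and 5 of 18 arrays correlated best with their own number. These values cannot decide whether the numbers pair the samples, as no level expected without pairing was computed. With the deposited ratios Cyp2e1 was at -0.048 for rosuvastatin against vehicle. In the sample channel alone, chosen after seeing the data, rosuvastatin against vehicle gave 0.22 (Cyp2a4), 0.49 (Cyp2e1) and 0.41 (Cyp4b1), and atorvastatin against vehicle gave 0.071, 0.47 and 0.27. The causes were not tested. In place of 2 correlated pairs there was 1 with plain background subtraction, with the array median in place of loess, within the 11 arrays and by Spearman's rho, 6 with the spike-in shift, 5 in the sample channel alone, and 0 without ceiling spots, without spots near the ceiling (added after seeing the data) and without the 2 farthest arrays. Leaving out 1 array gave 0 to 2. The correlation of Cyp1a2 with Cyp2e1 turned to 0.007 with the deposited ratios and to 0.026 in the sample channel alone. Ring size as a block, the replicate block, array weights and the filters on dim probes were not run for the pairs.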
